A study of Mus musculus with 5 samples.

Results

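The immediate early genes Fos, Fosb, Fosl1, Fosl2, Jun, Junb, Jund, Egr1, Ier2 and Ier3 were followed across 5 RNA sequencing libraries of mouse E14 embryonic stem cells. They are 10 of the 21930 genes summed from the deposited table. They were taken by name, and each has 1 RefSeq transcript there. Their values are FPKM, fragment numbers scaled for transcript length and for library depth, so levels of different genes are compared per length.

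All cells carried the label E14 with the strain C57BL/6, and each group is 1 library. The groups are normal cells cultured with leukemia inhibitory factor (LIF), cells labelled as overexpressing Hk2 and Pkm2 in the same medium, both kinds of cell after 24 hours without LIF followed by its addition, and the overexpressing cells after 40 days without LIF. Withdrawal below stands for the 24 hours without LIF together with the addition that followed. Effects of the loss of LIF and of its return were not tested apart. The sources used here do not give how long LIF was back before harvest, how the 2 genes were introduced or whether the cells are 1 clone. No group has a replicate, so a difference between 2 libraries carries no measure of replicate error.

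Immediate early genes are transcribed within minutes of a growth factor or stress signal, without new protein synthesis, and their RNA is short-lived. Jun, Junb and Jund encode subunits of AP-1, a leucine zipper transcription factor. Jun proteins pair with one another or with the Fos subunits, while Fos proteins need a Jun partner. Egr1 is a zinc finger factor induced by ERK signalling through serum response factor. In mouse embryonic stem cells LIF acts through STAT3 to hold the undifferentiated state, and it also feeds the ERK pathway.

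All 10 embryonic stem cell markers stood at 29.6 FPKM or more in each library, among them Pou5f1 at 807 to 1092 FPKM. The 12 fibroblast and feeder markers summed to between 3.13 and 13.2 FPKM, with the collagen genes Col1a1 and Col3a1 at or near 0. Of these markers, only Thy1 and Twist1 reached a mean of 1 FPKM. After withdrawal Thy1 was at least 2-fold higher in overexpressing than in normal cells, and Twist1 was not. The 10 extraembryonic endoderm markers summed to 6.66 to 33.7 FPKM in 4 libraries and to 361 FPKM in the 40 day library. Hk2 stood at 76.2 FPKM in normal and 98.6 FPKM in overexpressing cells with LIF, at 49.7 and 59.0 FPKM after withdrawal, and at 29.0 FPKM at 40 days. Pkm stood at 510 and 567 FPKM, at 611 and 564 FPKM, and at 495 FPKM, so the cells are called Hk2/Pkm2-labelled below. On a transcript of 1 kilobase, 1 fragment was worth between 0.0361 and 0.0403 FPKM across the libraries, an estimate from silent olfactory receptor genes whose values lay at the lowest step above 0.

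Proximal promoters are shown for 3 AP-1 genes that differed in pattern, since Junb and Fos were lower after withdrawal in both cell types and Jun was not. Each is the 250 bases before the start site, 5′ to 3′ on the gene's strand, from RefSeq on GRCm38.p6. Capitals mark matches to the motifs searched on both strands.
Fos, chr12:85473640-85473889, plus strand: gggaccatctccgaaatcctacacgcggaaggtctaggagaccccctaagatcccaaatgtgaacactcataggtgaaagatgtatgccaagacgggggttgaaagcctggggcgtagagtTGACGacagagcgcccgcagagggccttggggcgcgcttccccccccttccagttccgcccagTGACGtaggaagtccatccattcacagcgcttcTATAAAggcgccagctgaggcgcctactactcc
Junb, chr8:84978749-84978998, minus strand: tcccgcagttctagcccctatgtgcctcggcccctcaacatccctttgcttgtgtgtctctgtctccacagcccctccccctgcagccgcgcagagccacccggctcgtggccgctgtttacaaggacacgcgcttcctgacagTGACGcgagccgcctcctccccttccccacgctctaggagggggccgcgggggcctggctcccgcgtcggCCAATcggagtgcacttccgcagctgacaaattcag
Jun, chr4:95052223-95052472, minus strand: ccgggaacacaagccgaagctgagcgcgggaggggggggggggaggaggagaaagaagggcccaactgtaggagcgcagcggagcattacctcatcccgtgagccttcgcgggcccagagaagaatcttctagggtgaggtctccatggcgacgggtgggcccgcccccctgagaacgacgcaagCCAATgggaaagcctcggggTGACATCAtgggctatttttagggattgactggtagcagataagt
The Fos window holds 2 TGACG matches, starting 129 and 66 bases before the start site, and a TATAAA match at 33 bases. TGACG is the core of the cyclic AMP response element. The Junb window holds TGACG at 106 bases and CCAAT at 36 bases. The Jun window holds TGACATCA, a match to TGACNTCA, at 45 bases and CCAAT at 65 bases. Of all 32851 windows of this length, TGACG occurs in 17.8%, TGACNTCA in 7.49%, CCAAT in 33.8% and TATAAA in 12.4%. A TGACNTCA match with G at the open base also holds TGACG. The 3 windows held no match to the AP-1 site TGANTCA (6.75% of windows), the STAT-type TTCNNNGAA (7.02%), the Egr-type GCGNGGGCG (4.70%) or the CArG box of serum response factor (1.47%). Matches describe these letters only and show nothing about binding. Sites that depart from these strings were not searched, nor were bases further upstream, so a missing match does not show that a site is absent. The table held windows for 7 of the 10 genes, with none for Egr1, Fosl1 or Ier2.

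Junb, a Jun family subunit and a known STAT3 target, has the mm9 locus chr8:87500811-87502617 (minus strand, 1 exon, protein-coding). Its level was 64.0 FPKM in normal cells with LIF, 33.6 FPKM in Hk2/Pkm2-labelled cells with LIF, 13.3 FPKM in normal cells after withdrawal, 5.76 FPKM in labelled cells after withdrawal and 21.8 FPKM at 40 days. Both LIF libraries were above the other 3. Withdrawal went with a level 4.80-fold lower in normal and 5.84-fold lower in labelled cells. The labelled library was 1.90-fold lower than the normal one with LIF and 2.32-fold lower after withdrawal.

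Jund has the mm9 locus chr8:73221638-73224515 (plus strand, 1 exon, protein-coding) and encodes the subunit that is usually the most constitutive of the family. With LIF it had 37.3 FPKM in normal and 16.8 FPKM in labelled cells, followed by 19.7 and 24.5 FPKM after withdrawal, and at 57.0 FPKM at 40 days. The 2 kinds of cell thus went in opposite directions after withdrawal, 1.89-fold lower in normal and 1.46-fold higher in labelled cells. The difference between the directions was not tested, since 4 libraries leave no other residual to test it with.

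Jun, the subunit that gave the family its name, has the mm9 locus chr4:94715725-94718913 (minus strand, 1 exon, protein-coding). Its level was 3.92 FPKM in normal and 1.33 FPKM in labelled cells with LIF, 5.15 and 1.55 FPKM after withdrawal, and 16.3 FPKM at 40 days. Labelled cells were the lower in both cultures, 2.94-fold with LIF and 3.32-fold after withdrawal. About 118 and 123 fragments lie behind the 2 lowest levels, with exact 95% Poisson limits of 97.7 to 141 and 102 to 147. These limits, here and below, cover counting error only. The order of the libraries was therefore unlike that of Junb, with Jun highest at 40 days, where Junb was below both LIF libraries.

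**Figure D1:**
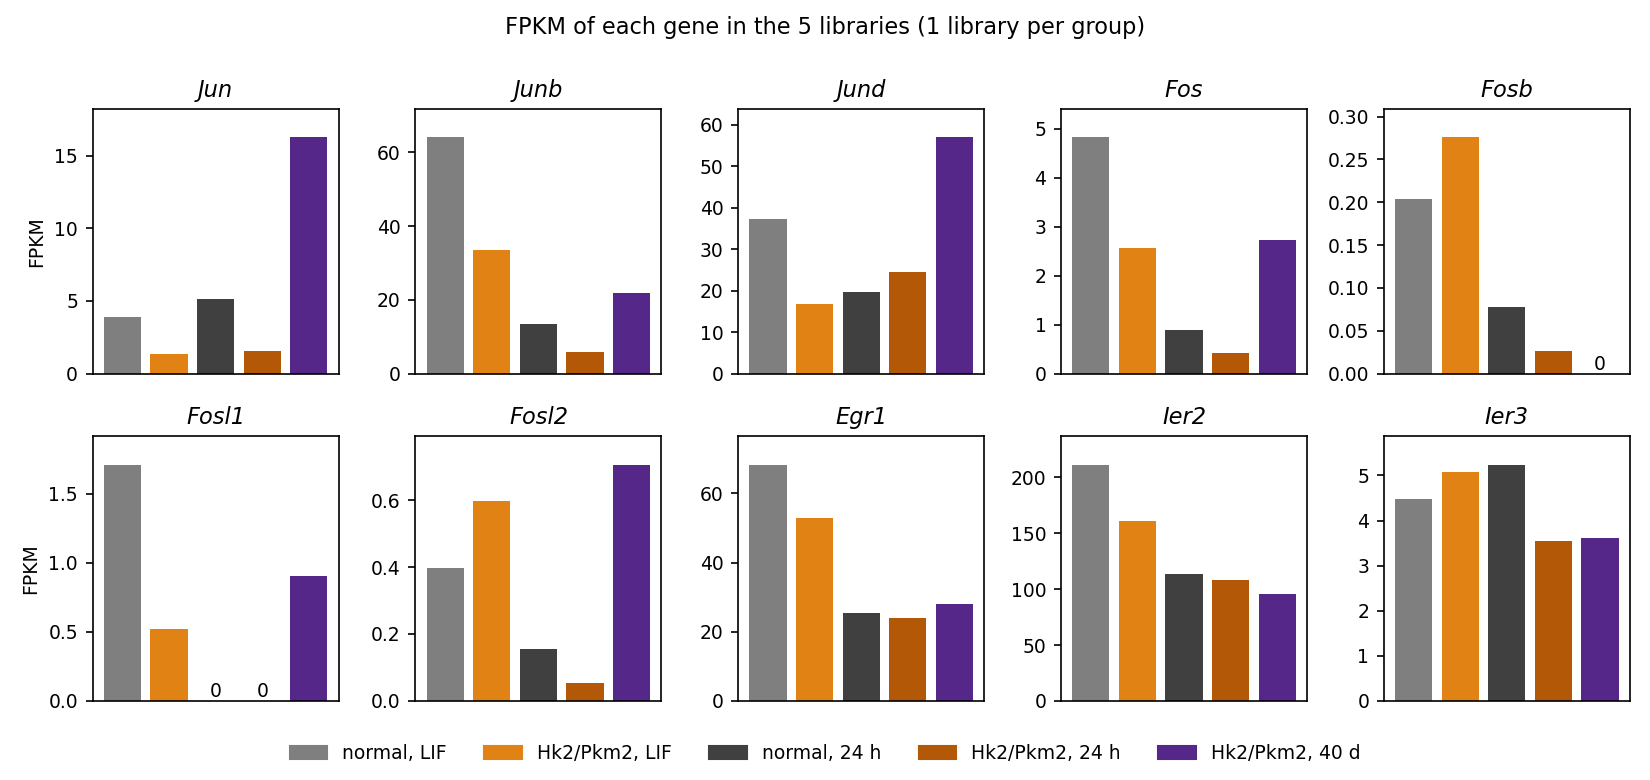
Bars give the FPKM of each of the 10 genes (vertical axis, linear from 0, scaled per gene) in the 5 libraries, 1 bar per library and no error bar because no group has a replicate. Junb, Fos, Egr1 and Ier2 are tallest in normal cells with LIF, while Jun and Jund are tallest at 40 days, at 16.3 and 57.0 FPKM.

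The make-up of the Jun family turned from Junb to Jund after withdrawal. Junb held 60.8% of the summed Jun family FPKM in normal cells with LIF and 64.9% in labelled cells. It held 34.9% and 18.1% after withdrawal and 23.0% at 40 days. Jund held 35.4% and 32.5% with LIF, 51.6% and 77.1% after withdrawal, and 59.9% at 40 days. The ratio of Junb to Jund was 1.72 and 2.0 with LIF, 0.676 and 0.235 after withdrawal, and 0.383 at 40 days. Jun itself held 3.73%, 2.58%, 13.5%, 4.87% and 17.1% in the same order. The summed level of the family was 105 FPKM in normal and 51.8 FPKM in labelled cells with LIF, 38.2 and 31.8 FPKM after withdrawal, and 95.1 FPKM at 40 days. At 40 days the total in labelled cells (95.1 FPKM) was thus above that of labelled cells with LIF (51.8 FPKM), with a different leading subunit. It was nearer to the total of normal cells with LIF (105 FPKM), a comparison that differs in both cell type and culture.

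**Figure D2:**
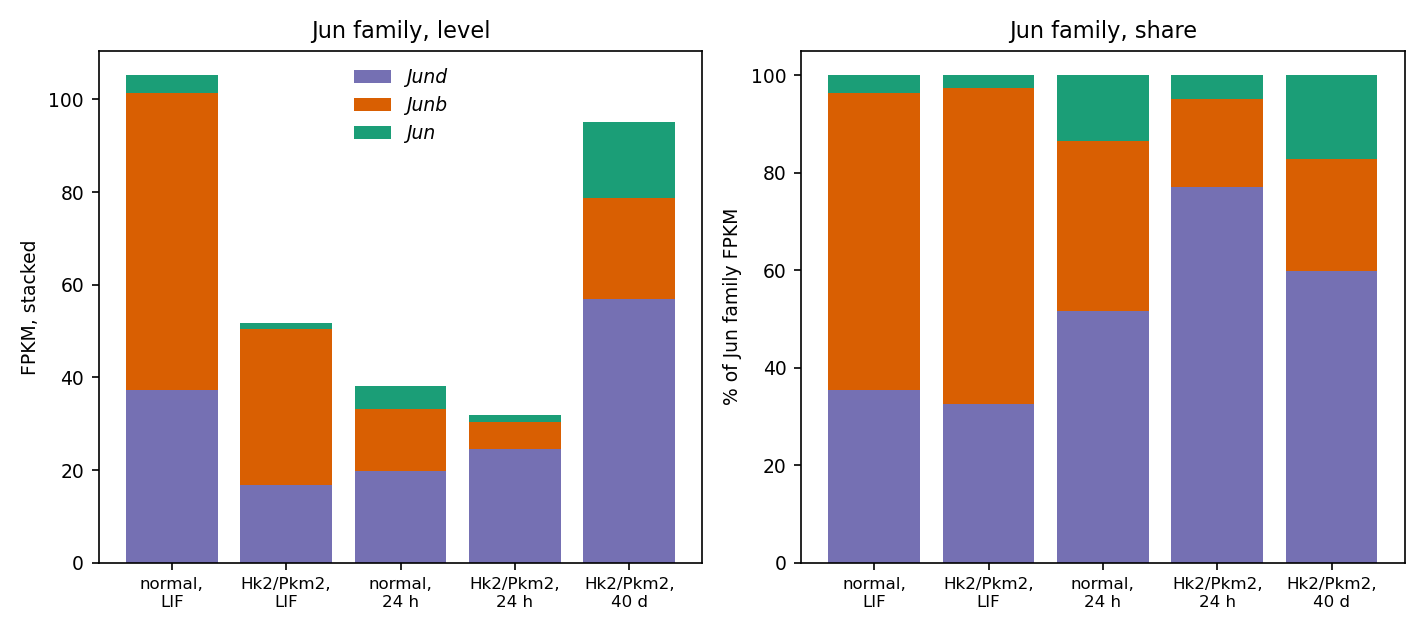
Left, stacked FPKM of Jund, Junb and Jun in each library; right, the same as a percent of their sum. Junb is the larger part in the 2 LIF libraries (60.8% and 64.9%) and Jund in the other 3 (51.6% to 77.1%).

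Fos, which pairs with Jun proteins to form the classical AP-1 dimer, has the mm9 locus chr12:86814840-86818223 (plus strand, 4 exons, protein-coding). In normal cells it had 4.82 FPKM with LIF and 0.883 FPKM after withdrawal, in labelled cells 2.56 and 0.418 FPKM, and at 2.73 FPKM at 40 days. Withdrawal went with a level 5.46-fold lower in normal and 6.13-fold lower in labelled cells. About 49 fragments (95% Poisson limits 36.3 to 64.8) lie behind the normal level after withdrawal and 22 (13.8 to 33.3) behind the labelled one. The 40 day level and the labelled level with LIF had overlapping counting limits.

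The other Fos family genes were low and did not reach a mean of 1 FPKM, so they entered no 2-fold count below. About 81 fragments lie behind Fosl1 in normal cells with LIF. Fosl2 ranged from about 8 fragments in labelled cells after withdrawal to about 114 at 40 days. Fosl1, which encodes Fra-1, stood at 1.71 and 0.517 FPKM with LIF, was listed at 0 in both withdrawal libraries and stood at 0.905 FPKM at 40 days. A listed 0 can be a failed estimate. Fosl1 overlaps Ccdc85b, which stood at 3.0, 0.912, 2.25, 2.32 and 1.49 FPKM in the order of the libraries, and the library kit does not mark strand, so reads of the 2 genes cannot be told apart where they overlap. Fosl2, which encodes Fra-2, stood at 0.397 and 0.597 FPKM with LIF, 0.156 and 0.0542 FPKM after withdrawal and 0.705 FPKM at 40 days. Fosb had 0.204 and 0.276 FPKM with LIF, then 0.0774 and 0.0262 FPKM after withdrawal, with about 29 fragments at most, and was listed at 0 at 40 days. The listed values of all 4 Fos family genes were thus lower after withdrawal than with LIF in each cell type. Of the 9590 genes with a mean of at least 1 FPKM, 50.9% in normal and 48.6% in labelled cells were lower. Of the 4, only Fos is among those 9590. Jun family RNA exceeded Fos family RNA in each library, by 14.7 and 13.1 times with LIF, 34.2 and 63.9 times after withdrawal and 21.9 times at 40 days.

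Egr1 has the mm9 locus chr18:35020861-35024638 (plus strand, 2 exons, protein-coding). Its level was 68.3 FPKM in normal and 52.9 FPKM in labelled cells with LIF, 25.4 and 24.0 FPKM after withdrawal, and 28.2 FPKM at 40 days. The 2 LIF libraries were above the other 3, and the 2 withdrawal libraries had overlapping counting limits (24.4 to 26.6 and 22.9 to 25.1 FPKM). Withdrawal went with a level 2.68-fold lower in normal and 2.21-fold lower in labelled cells.

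Ier2, a nuclear protein of the immediate early response, had the highest FPKM of the 10 genes in each library. Its mm9 locus is chr8:87185230-87186751 (minus strand, 1 exon, protein-coding). It stood at 211 and 161 FPKM with LIF, 113 and 109 FPKM after withdrawal and 95.3 FPKM at 40 days, and held between 42.1% and 64.4% of the summed FPKM of the 10 genes. Unlike Junb, Jund, Jun and Fos, it was not higher at 40 days than in labelled cells after withdrawal. Ier3, a stress-induced regulator of cell survival, was the flattest. It stood at 4.47 and 5.09 FPKM with LIF, 5.24 and 3.55 FPKM after withdrawal and 3.62 FPKM at 40 days, a range of 1.47-fold, with about 100 to 159 fragments per library.

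Withdrawal of LIF was compared in each cell type, and these 2 comparisons share no library. Ratios below are log2 values of FPKM + 1, which understates the change of low genes, and are set against the 9590 genes with a mean of at least 1 FPKM. In normal cells Junb (-2.18), Fos (-1.63) and Egr1 (-1.39) were at least 2-fold lower, 3 of the 7 genes past that filter, against 5.51% of all genes. In labelled cells the same 3 genes, Junb (-2.36), Fos (-1.33) and Egr1 (-1.11), were at least 2-fold lower, against 6.07%. None of the 7 was 2-fold higher in either, against 4.62% and 5.79%. Ier2 was lower by less (-0.89 and -0.57), and Jun was slightly higher (0.32 and 0.13). Below 0 were 5 of the 7 in each, against 50.9% and 48.6% of all genes. The median of the 7 was -0.89 and -0.57, against -0.0055 and 0.0042 over all genes. With 5 in place of 1 added to the FPKM, Fos was -0.74 and -0.48 and Egr1 in labelled cells -0.998, past 2-fold no more. In bulk RNA, fewer cells with a transcript and less of it per cell cannot be told apart.

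Averaged over both cell types in limma (4 libraries, 1 residual degree of freedom), the difference after withdrawal was -2.27 ± 0.10 for Junb (SE), -1.48 ± 0.18 for Fos, -1.25 ± 0.12 for Egr1 and -0.73 ± 0.13 for Ier2. The limma adjusted p, over 9590 genes, was 0.324 for Junb, 0.334 for Fos, 0.324 for Egr1 and 0.345 for Ier2, so none passed 0.05. No gene of the whole table did (0% of 9590), with 1154 at an unadjusted p under 0.05 (12.0%). The 4 genes named were all among the 621 lower ones at that unadjusted level (6.48%). Jund (-0.18 ± 0.45), Jun (0.22 ± 0.17) and Ier3 (-0.11 ± 0.25) had differences smaller than 2 standard errors.

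**Figure D3:**
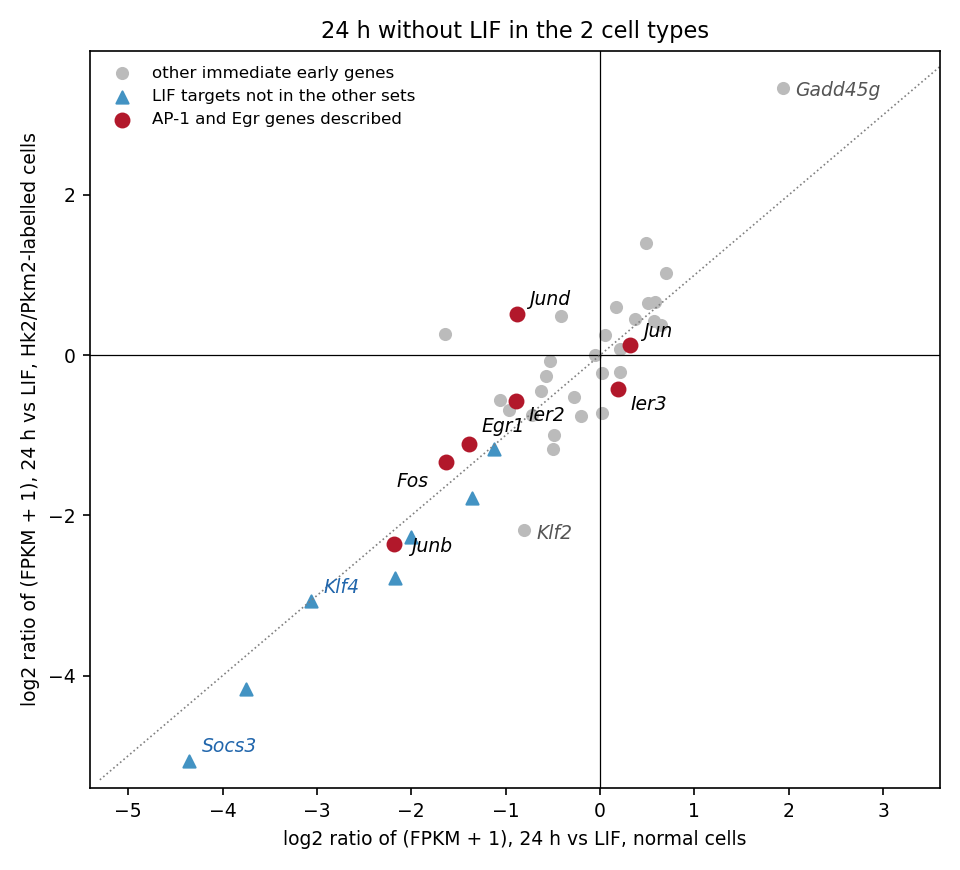
Each point is 1 gene, with its log2 ratio of FPKM + 1 after withdrawal in normal cells (horizontal) and in Hk2/Pkm2-labelled cells (vertical); the dotted line marks equal ratios. Junb, Fos and Egr1 lie near the line at the lower left with LIF targets such as Klf4 and Socs3, Jund lies above it (-0.88 and 0.52), and the other immediate early genes spread around 0.

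Of 37 other listed immediate early genes 28 passed the filter, with a median ratio of -0.019 in normal and -0.037 in labelled cells. In normal cells 1 was at least 2-fold higher and 2 lower, and in labelled cells 3 were higher and 2 lower, against the shares of all genes given above (4.62% and 5.51%, then 5.79% and 6.07%). Gadd45g, a stress-response regulator, stood at 1.42 and 8.27 FPKM in normal cells and at 0.4796 and 13.96 FPKM in labelled cells, the highest ratio of the list in both. Klf2, a naive pluripotency factor, stood at 137 and 78.2 FPKM in normal and at 199.9 and 43.1 FPKM in labelled cells. Nr4a1, an orphan nuclear receptor, stood at 30.2 and 21.05 FPKM and at 28.2 and 12.01 FPKM. Egr2, Egr3 and Egr4, the relatives of Egr1, were below 1 FPKM in each library. Nab2, a corepressor bound by Egr proteins, stood at 8.97 and 2.16 FPKM in normal and at 6.804 and 4.58 FPKM in labelled cells. It was listed at 0 at 40 days. Wt1, a zinc finger gene related to the Egr family, was listed at 0 in normal cells with LIF and at 40 days and reached 9.33 FPKM in labelled cells after withdrawal.

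For the lists that follow, 5.51% of all genes in normal and 6.07% in labelled cells were at least 2-fold lower. The shares that much higher were 4.62% and 5.79%. Of 6 serum response factor and ternary complex genes past the filter, only Elk4 was 2-fold different in normal cells. It was listed at 0 with LIF, and none of the 6 was 2-fold different in labelled cells. Srf stood at 17.3 and 19.5 FPKM in normal and at 12.6 and 19.7 FPKM in labelled cells. Of 23 mitogen-activated kinase pathway genes, 1 was 2-fold higher in each cell type (Rps6ka3 in normal, Mapk12 in labelled) and none lower. The ERK phosphatase gene Dusp6 stood at 49.2 and 44.6 FPKM in normal and at 63.4 and 45.8 FPKM in labelled cells, while Dusp4 was higher after withdrawal in both, at 4.06 and 10.9 FPKM and at 2.86 and 11.1 FPKM. Of 7 genes of AU-rich mRNA decay, the process that clears many immediate early RNAs, Hnrnpd was at least 2-fold higher after withdrawal in normal cells (14.9 and 32.1 FPKM) and none in labelled cells. Of 10 LIF targets, 8 were at least 2-fold lower in each cell type, against 5.51% and 6.07% of all genes. The 10 had a median of -2.09 and -2.31. They include Junb, and also Ier3, which was not among the 8. Socs3 stood at 65.3 and 2.25 FPKM in normal cells and at 64.8 and 0.9695 FPKM in labelled cells.

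Of 9 AP-1 target genes past the filter, Spp1 and Vim were at least 2-fold lower after withdrawal in both cell types. Of all genes, 5.51% in normal and 6.07% in labelled cells were that much lower. None of the 9 was 2-fold higher, against 4.62% and 5.79%. In each cell type 6 of the 9 were above 0 and 3 below, with a median of 0.25 in normal and 0.42 in labelled cells. Spp1, the gene of the secreted phosphoprotein osteopontin, stood at 446 and 150.01 FPKM in normal and at 467 and 119.5 FPKM in labelled cells. Vim, an intermediate filament gene, stood at 100.4 and 44.6 FPKM and at 144 and 37.5 FPKM. The cyclin gene Ccnd1 stood at 39.2 and 43.4 FPKM and at 45.7 and 61.3 FPKM.

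The question the series poses is how labelled cells differ from normal ones. With LIF, 6 of the 7 genes were lower in the labelled library, against 55.1% of all genes. Jund (-1.10) and Jun (-1.08) were at least 2-fold lower, against 5.32% of all genes. None was 2-fold higher, against 4.11%. Junb (-0.91) and Fos (-0.71) followed, and Ier3 was slightly higher (0.15). Under quantile normalization Jund and Jun were at -0.993 and -0.992, and with 5 added to the FPKM at -0.95 and -0.49, so neither reached 2-fold. After withdrawal 6 of the 7 were again lower, against 52.8%, and Jun (-1.27) and Junb (-1.09) at least 2-fold, against 5.18%. None was 2-fold higher, against 4.19%. Junb was -0.997 under quantile normalization and -0.77 with 5 added, and Jun -0.63 with 5 added.

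Averaged over both cultures, labelled minus normal was -1.17 ± 0.17 for Jun (SE, limma), -0.997 ± 0.10 for Junb and -0.56 ± 0.18 for Fos. The limma adjusted p was 0.512 for Jun, 0.512 for Junb and 0.524 for Fos. No gene of 9590 passed (0%), with 918 at an unadjusted p under 0.05 (9.57%), of which 615 were lower (6.41%), Jun and Junb among them. Without culture in the model 1 of the 7 was at that unadjusted level. Egr1 (-0.22 ± 0.12), Ier2 (-0.22 ± 0.13), Ier3 (-0.15 ± 0.25) and Jund (-0.40 ± 0.45) had smaller differences.

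Among the 28 other immediate early genes, 7 were at least 2-fold lower in labelled cells with LIF, 4 after withdrawal and none higher in either. Of all genes 5.32% and 5.18% were that much lower and 4.11% and 4.19% higher. The 4 after withdrawal, Ccn1, Gadd45b, Ccn2 and Klf6, are among the 7 with LIF. Ccn1, a secreted matricellular protein gene, had 22.4 FPKM in normal against 6.66 FPKM in labelled cells with LIF and 26.03 against 5.64 FPKM after withdrawal. Gadd45b had 11.6 against 3.51 FPKM and 6.595 against 1.69 FPKM. Klf6, a zinc finger factor, had 12.6 against 4.42 FPKM and 21.2 against 10.05 FPKM. Their limma differences averaged over both cultures were -1.82 ± 0.17 for Ccn1, -1.49 ± 0.15 for Gadd45b and -1.17 ± 0.15 for Klf6 (SE), each with a limma adjusted p of 0.512. Of 10 heat shock genes 9 passed the filter, with median ratios between cell types of -0.18 with LIF and -0.08 after withdrawal. Averaged over both cultures, the 9 ranged from -0.71 ± 0.09 for Hspb1 to 0.38 ± 0.09 for Hsph1 (SE, limma). The limma adjusted p of these ends was 0.512 and 0.516. Their part in the result was not tested.

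At 40 days without LIF, Jun and Jund were higher than in labelled cells with LIF, by 12.2-fold and 3.38-fold in FPKM. They were 2 of the 7 genes, against 14.0% of all genes at least 2-fold higher. None of the 7 was 2-fold lower, against 8.31%. Junb (-0.60), Egr1 (-0.89) and Ier2 (-0.75) were lower and Fos was level (0.067), with 4 of 7 below 0 against 44.8%. Compared with labelled cells after withdrawal, which is the same 40 day library against another one, Jun (2.76), Junb (1.76), Fos (1.40) and Jund (1.18) were at least 2-fold higher, 4 of 7 against 12.1% of all genes. None was 2-fold lower, against 5.78%. Egr1 (0.22), Ier3 (0.022) and Ier2 (-0.18), the 1 gene of 7 below 0 against 44.8%, stood close to 0. Quantile normalization moved the median of all genes from 0.076 to -0.035 against LIF and from 0.072 to -0.054 against withdrawal. It left 11.4% of genes 2-fold higher and 10.6% lower in the first comparison, 9.33% and 8.27% in the second, with the same 2 and 4 of the 7 higher. Fos against LIF (-0.30) and Ier3 against withdrawal (-0.30) turned negative under it.

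**Figure D4:**
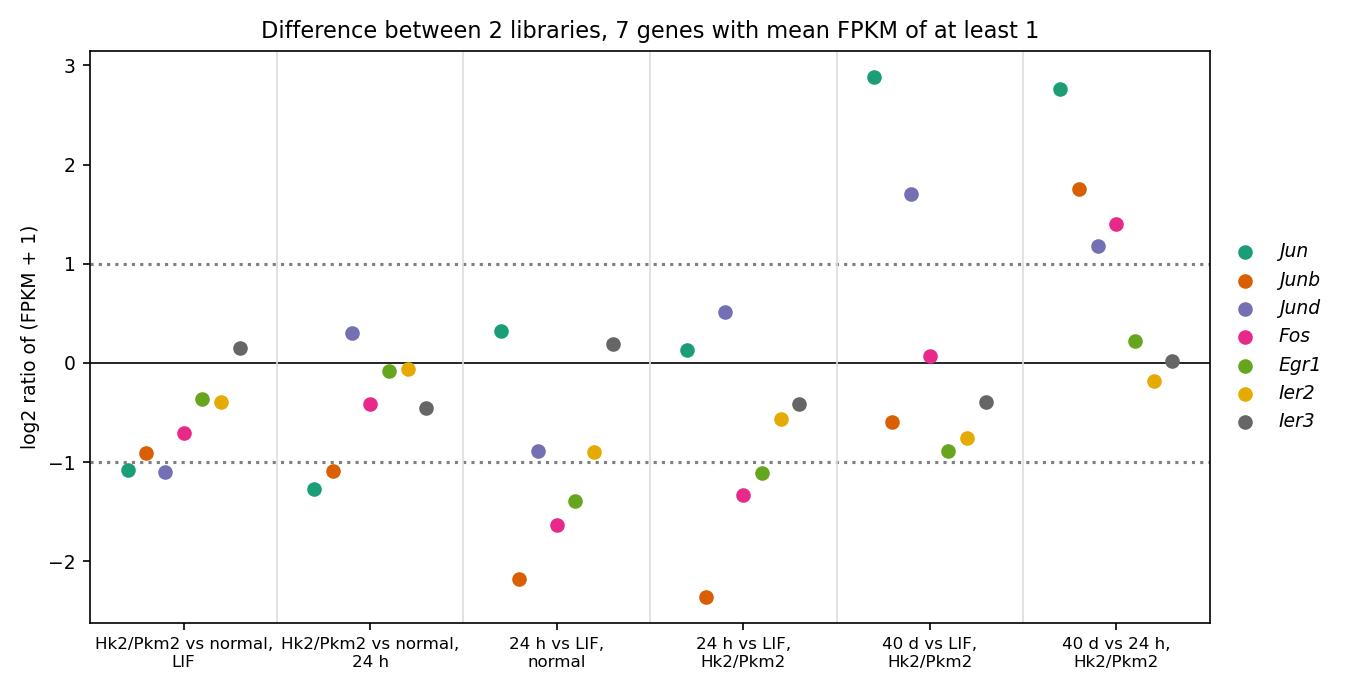
Points give the log2 ratio of FPKM + 1 (vertical) of the 7 genes with a mean of at least 1 FPKM in the 6 comparisons between 2 libraries (horizontal); dotted lines mark 2-fold. Junb, Fos and Egr1 are below the lower line in both withdrawal comparisons, and Jun is the highest point at 40 days (2.89 and 2.76); comparisons that share a library are not independent.

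Of 8 AP-1 dimer partners past the filter, 3 (Atf3, Jdp2 and Mafk) were at least 2-fold higher at 40 days than with LIF, against 14.0% of all genes, and none lower, against 8.31%. Atf3, a stress-induced subunit, stood at 0.289 to 0.6302 FPKM in 4 libraries and at 30.9 FPKM at 40 days, and passed the filter through that library alone, so that its higher level there was fixed by the filter. Jdp2, a Jun dimerization partner that represses AP-1, stood at 2.35 and 1.39 FPKM with LIF, 0.402 and 0.237 FPKM after withdrawal and 8.34 FPKM at 40 days. Of the other immediate early genes, 9 of 28, Atf3 among them, were at least 2-fold higher than with LIF and 5 lower, against 14.0% and 8.31% of all genes. Rhob, a small GTPase gene, stood at 7.11 FPKM with LIF and 41.2 FPKM at 40 days, Klf6 at 4.42 and 24.3 FPKM, and Ccn1 at 6.66 and 61.05 FPKM. Arc, a cytoskeletal immediate early gene, stood at 15.8 and 2.14 FPKM. The phosphatase genes Dusp9 (17.8 and 90.9 FPKM), Dusp4 (2.86 and 17.3 FPKM) and Dusp16 (2.09 and 13.1 FPKM) were higher and the ERK inhibitor Spry4 (75.8 and 17.2 FPKM) lower.

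The 40 day library also held extraembryonic endoderm transcripts. The 8 markers past the filter were at least 2-fold higher than with LIF, against 14.0% of all genes. Gata6, Dab2, Amn and Cubn, 4 of the 8, reached the filter only through the 40 day library, which fixes their direction. Gata4 (1.19 and 25.6 FPKM), which did not depend on it, and Dab2 (0.276 and 52.04 FPKM) were among the 8, with Sox17 listed at 0. Embryonic stem cell markers summed to 2179 FPKM there, against 3193 to 3559 FPKM in the other libraries. Trophoblast markers summed to 80.8 FPKM at 40 days and to between 13.0 and 29.6 FPKM in the other libraries. Of 4 past the filter, Krt18 and Krt8 were at least 2-fold higher than with LIF and Tfap2c lower. Of all genes 14.0% were that much higher and 8.31% lower. How these transcripts relate to the Jun, Jund and Atf3 values was not tested.

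Genes most like a member were sought among the 8841 genes above 0 in all 5 libraries, by the root mean square distance between log2 profiles centred on their means. For Junb they were Pros1 (0.20), Serpinb6c (0.20) and Aqp3 (0.20), for Jun Rlim (0.16), Repin1 (0.21) and Rnf128 (0.25), and for Fos Zfp423 (0.15), Wdr45 (0.19) and Cmtm7 (0.24). Aqp3, a water and glycerol channel gene, stood at 11.9 and 6.03 FPKM with LIF, 1.49 and 0.581 FPKM after withdrawal and 4.97 FPKM at 40 days, the order of Junb. Rlim, a ubiquitin ligase gene, stood at 6.92, 3.75, 8.72, 3.86 and 25.9 FPKM in the order of the libraries, the order of Jun. The distance of Fos to Egr1 was 0.40 and to Junb 0.44, while Junb and Jun were 1.41 apart. With 5 libraries such distances describe these libraries only.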

How the data were processed

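The members and gene lists were chosen with earlier results of these data known. RNA of 5 libraries was sequenced after TruSeq library preparation, per the labels' protocols. TopHat2 2.0.7 and Cufflinks 2.0.2 with the mm9 build are named in the submitters' processing notes. The authors deposited FPKM per RefSeq transcript, normalized for length and depth. The sources used here do not give further settings.

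Symbols for the transcripts came from a RefSeq table of GRCm38.p6 (28066 of 28698 found), and FPKM was summed per gene. Genes with a hyphen in any library, 337 in all, were left out. Library depth is not in the table. Fragments behind a member were estimated as FPKM times transcript length (GENCODE vM1, longest protein-coding transcript) divided by the value of 1 fragment, with no correction for fragment length, so they are approximate.

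Ratios used log2(FPKM + 1) and a mean of at least 1 FPKM, and 2-fold differences were counted without a test. Limma 3.58.1 was run in R 4.3.3 with lmFit, eBayes with trend and Benjamini-Hochberg adjustment. It was fitted to the normal and labelled libraries with LIF and after withdrawal (4 in all), with cell type and culture as additive factors. Simulated data with known changes were also fitted, and how many of these changes were recovered is not given here. Nothing shows that the 4 libraries are separate cultures. The 1 residual degree of freedom holds the departure from additive cell type and culture differences plus library noise. An SE or p-value therefore measures that, moderated over all genes, and not replicate error. Named genes are all 10 members, up to 4 list genes with the largest ratios above 0 in both libraries, list genes whose level is given beside a member, and for the 3 members of largest range the 3 nearest profiles. Other pseudocounts, filters and scalings were tried.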

Additional observations from a re-analysis of the deposited data

Results flagged for a closer look

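Jund went in opposite directions after withdrawal in the 2 cell types, at -0.88 in normal and 0.52 in Hk2/Pkm2-labelled cells, a difference of 1.40 on the log2 scale. Seen as a difference between cell types, it was -1.10 with LIF and 0.30 after withdrawal, the same 1.40. Ier3, a low-expressed gene with overlapping counting limits in several libraries, was 0.19 in normal and -0.42 in labelled cells after withdrawal, a difference of -0.61, and 0.15 with LIF and -0.45 after withdrawal between cell types. Neither difference was tested, because each rests on 1 library per group.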

How the results depend on the processing

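Leaving out a library was not possible because each group has only 1. No paired analysis was possible because the groups share no replicate number beyond the single library of each. Of 282 values of single members under the alternatives, 271 stayed on the same side of 2-fold and 11 fell short of it; 3 changed sign, all values smaller than 2-fold. Adding 5 to the FPKM left 0 members 2-fold lower between cell types with LIF and 0 after withdrawal, and 1 after withdrawal in labelled cells; medians became -0.38, -0.12, -0.23 (40 days against LIF) and 0.51 (40 days against withdrawal). With 0.1 added, the median between cell types with LIF was -0.89. Quantile normalization left 0 and 1 members 2-fold lower between cell types with LIF and after withdrawal, and the 40 day median against LIF became -0.60. Without a filter (10 members) the medians were -0.11 between cell types after withdrawal, -0.14 for 40 days against LIF and 0.81 against withdrawal. With a minimum of 5 FPKM (5 members) they were -0.91 and -0.082 between cell types and -0.60 for 40 days against LIF; fewer members enter these. With the other factor left out of limma, 1 member instead of 2 was at an unadjusted p under 0.05 for cell type. The set of genes above 0 in all 5 libraries was chosen after seeing the data; it left the counts of members at 2-fold as they were and put 3 members instead of 2 at an unadjusted limma p under 0.05 for cell type, the third being Fos; there 3.59% and 3.70% of genes were 2-fold lower between cell types. Depth limits Fosb, Fosl2 and Fos, with about 2, 8 and 22 fragments at their lowest above 0, and Fosl1, listed at 0 in 2 libraries.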
